A study of Mus musculus with 55 samples.

Results

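The data described here are the pair of conditions 1 week after optic nerve crush: 10 arrays of the 55 in the series, namely 5 of crushed and 5 of contralateral optic nerve heads (ONHs). The arrays were picked by their labels alone, as the samples titled crushed or contralateral at 1 week, and they were matched by biological replicate number. The crushed ONHs came from the left eyes of C57Bl/6 female mice aged 6 to 8 weeks, in which forceps had closed on the nerve 1 mm from the eyeball for 10 seconds. The contralateral ONHs came from the right eyes of the same mice, which had no crush. Each array held a pool of 2 ONHs, and the left and the right eyes of the same 2 mice gave one pair of arrays. The mice carried no transgene. The tissue reached into the start of the myelinated nerve, was free of sclera and meningeal sheath, and was not sorted by cell type.

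In the ONH the unmyelinated axons of the retinal ganglion cells leave the eye in bundles, wrapped by astrocytes, and take on myelin from oligodendrocytes a short way behind. The ONH lies between the eye and the crush, so the axons in it are on the side of their cell bodies. After such an injury many ganglion cells and their axons degenerate over time, and microglia and incoming macrophages take up debris. Bulk RNA of such tissue holds all of these cells at once, so that fewer cells of a type and less RNA per cell cannot be told apart in any result below.

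Intensities were floored at 20 and put on a log2 scale. A gene or probe set was called where limma gave an adjusted p under 0.05 and at least a 2-fold difference, and "rose" and "fell" are used of called genes alone. Intensities are given for pairs 1 to 5 in that order, fold changes are log2 of crushed over contralateral with their standard errors (SE, n = 5 pairs), and a value under the floor has no order among others under it. The SE takes its spread from all 40 arrays of the model and not from the 1-week pairs alone. Each gene is given by 1 probe set, the brightest that carries its symbol alone. Of 219 named genes 83 had further probe sets, whose values are not shown unless stated.

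The 10 arrays had median intensities of 505 to 554 in crushed ONHs and 485 to 532 in contralateral ONHs. The tissue label held: the astrocyte markers Gfap and Aqp4, the myelin gene Mbp and the microglial gene C1qb were measured on every array, at no less than 7774, 5456, 9520 and 6410 intensity units. Retinal RNA varied far more. The mean log2 intensity of 17 photoreceptor markers lay between 5.39 and 11.46 in crushed ONHs and between 5.42 and 12.30 in contralateral ONHs. Crushed replicate 5 and contralateral replicate 4 were the highest of their groups, and none of the 17 markers was called or had an unadjusted p under 0.05 in limma. The plot of marker levels shows how these arrays stand beside the markers of other cells.

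**Figure D1:**
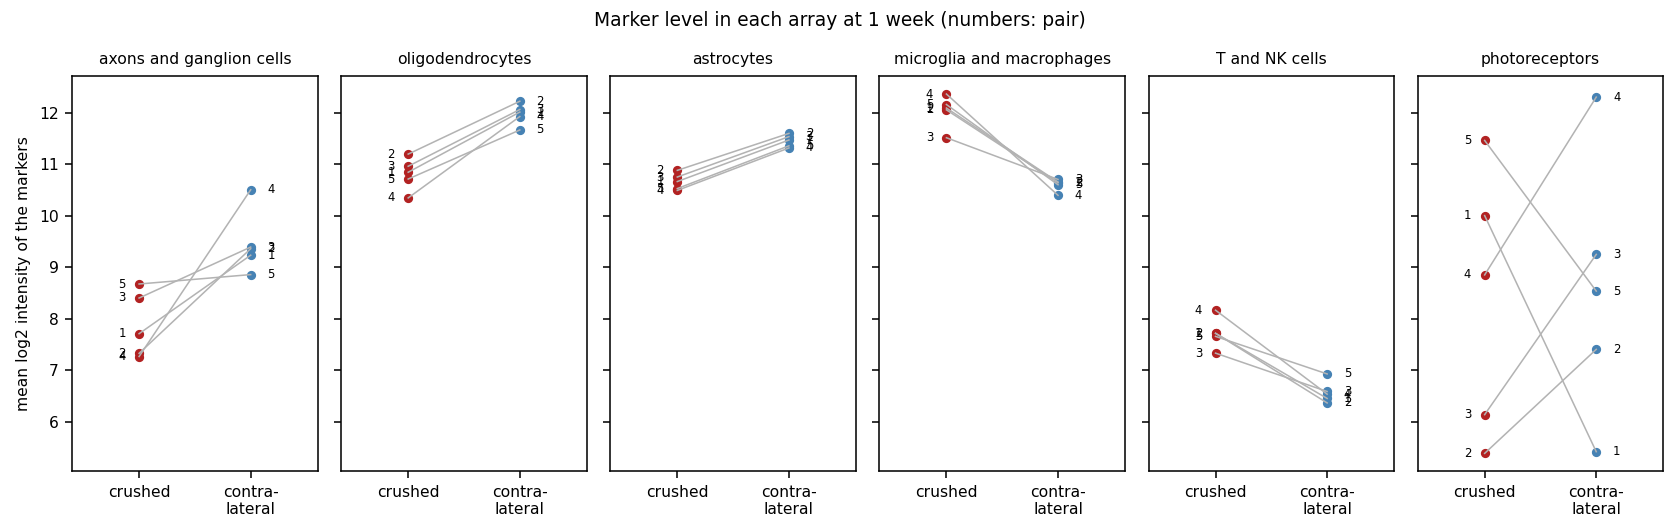
Mean log2 intensity of the markers of 6 cell types in each array at 1 week, crushed left and contralateral right, with lines that join the arrays of a pair and numbers that give the pair. Oligodendrocyte and astrocyte markers were lower and microglial and T cell markers higher in the crushed array of all 5 pairs, whereas photoreceptor markers ranged from 5.39 to 12.30 with no common direction.

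A total of 1199 probe sets rose and 681 fell in crushed ONHs, of 19313 tested (6.21% and 3.53%, or 9.73% together). Counted as genes, 703 of 10768 rose (6.53%) and 422 fell (3.92%), and the median log2 fold change over all genes was -0.01. These shares are the background against which the counts of each gene group are to be read. The intensities of crushed and contralateral ONHs did not overlap in 23.3% of all genes tested.

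The genes of the axon gave the largest falls. Of 21 markers of axons and ganglion cells 9 fell and 1 rose, with a median log2 fold change of -1.42. Sptbn4, the βIV-spectrin that anchors channels at nodes of Ranvier and the axon initial segment, had the largest fall of all genes. Its intensities were 6.08, 9.86, 10.3, 8.4 and 11.2 in crushed ONHs, against 1918, 2182, 2496, 1118 and 623 in contralateral ONHs (log2 fold change -6.22 ± 0.24, adjusted p = 9.37e-13). All 5 crushed arrays were below the floor, so the fold change understates the difference, and the groups lay far apart. Nefh, the heavy neurofilament subunit, followed with 19.2, 94.1, 62.6, 26.3 and 48 in crushed and 1385, 1765, 1647, 1690 and 588 in contralateral ONHs (log2 fold change -4.94 ± 0.31, adjusted p = 9.14e-10). Contralateral replicate 5 was the lowest of its group in both genes and still above every crushed array.

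Nefm and Nefl, the medium and light subunits, fell as well. Nefm had 21.3, 19.1, 96.5, 29.3 and 71.1 in crushed ONHs and 246, 325, 299, 889 and 112 in contralateral ONHs (log2 fold change -2.95 ± 0.48, adjusted p = 4.84e-05). Nefl had 89.6, 67.3, 373, 56 and 314 in crushed ONHs and 569.9, 785, 442, 4042 and 426 in contralateral ONHs (log2 fold change -2.61 ± 0.65, adjusted p = 0.00278). The single high values of both genes were those of contralateral replicate 4, the array with the most photoreceptor RNA. In crushed ONHs both genes were highest in replicate 3, whose mean photoreceptor log2 level was 6.14. They were next highest in replicate 5, whose level of 11.46 was the highest of the crushed arrays. The source of these values was not tested. Without pair 4 the fold change of Nefl was -1.72 (adjusted p = 0.0251), and with the photoreceptor level of each array as a covariate it was -2.56 (adjusted p = 0.00132).

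Rph3a, which codes for rabphilin of synaptic vesicles, had 5.94, 18.6, 8.51, 11.8 and 25.9 in crushed ONHs, against 291, 341, 291, 301 and 115 in contralateral ONHs (log2 fold change -3.58 ± 0.24, adjusted p = 1.53e-09). Nrsn1, a neuronal vesicle protein, had 652, 426, 955, 268 and 2634 in crushed ONHs and 6042, 5755, 5050, 6347 and 5482 in contralateral ONHs (log2 fold change -3.00 ± 0.49, adjusted p = 5.94e-05). Calb2, calretinin of ganglion and amacrine cells, had 110.3, 47.8, 63.9, 37.1 and 552 in crushed ONHs and 727, 768, 683, 2948 and 745 in contralateral ONHs (log2 fold change -3.38 ± 0.60, adjusted p = 0.00013). In Nrsn1 and Calb2 the highest crushed value belonged to replicate 5, the crushed array with the most photoreceptor RNA. Cacng3, an auxiliary subunit of AMPA receptors, was highest in crushed replicate 5 too. It had 8.88, 12.7, 15, 10.9 and 117 in crushed ONHs against 239.9, 284, 205, 448 and 221 in contralateral ONHs (log2 fold change -3.23 ± 0.47, adjusted p = 1.56e-05). Apart from replicate 5, all its crushed values were below the floor. Mapk8ip2, a scaffold of the JNK pathway in neurons, fell with 261, 268, 351, 155 and 709.9 in crushed and 3314, 3486, 3599, 2838 and 2484 in contralateral ONHs (log2 fold change -3.35 ± 0.29, adjusted p = 2.36e-08), and crushed replicate 5 was again the highest.

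Motor proteins of the axon fell in number: 9 of 21 genes of axonal transport were lower and none was higher (median -0.58; 15 of the 21 were lower and 1 higher at an unadjusted p under 0.05). Kif5a, the neuronal heavy chain of kinesin-1, had 84, 80.7, 51.5, 65 and 66.3 in crushed ONHs and 511, 428, 529, 301 and 260.5 in contralateral ONHs (log2 fold change -2.51 ± 0.19, adjusted p = 6.96e-09). Kif1a, which carries synaptic vesicle precursors, and Kif5c, another kinesin-1 chain, had fold changes of -2.30 and -1.81. Kif5b, the kinesin-1 chain made in most cells, had -0.82 and was not called, although its adjusted p was 5.99e-08, because it missed the 2-fold line. Klc1, a kinesin light chain, fell by 1.74 on the log2 scale. Of 21 synaptic vesicle genes 6 fell and none rose (median -0.68), among them Vamp1 (-2.38), Sv2a (-1.64) and Cplx1 (-2.02). Cplx1 was lower in the crushed array of 3 of the 5 pairs, and its call was lost without pair 1, 2 or 4 (-1.95, -1.74 and -1.20, adjusted p = 0.0533, 0.0759 and 0.143). Snap25, the synaptic membrane SNARE, was not called (log2 fold change -1.42 ± 0.69, adjusted p = 0.105) and spanned 296 to 7591 in crushed and 2841 to 10851 in contralateral ONHs. Syt1, synaptotagmin of synaptic vesicles, had a fold change of 0.19 and was not called either.

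Thy1 went the other way among the axon and ganglion cell markers. This surface protein of ganglion cells, also made by fibroblasts and T cells, had 1357, 1325, 2445, 2845 and 1288 in crushed ONHs and 737, 690.1, 942, 1929 and 520.0 in contralateral ONHs (log2 fold change 1.01 ± 0.17, adjusted p = 8.09e-05). The groups overlapped through contralateral replicate 4. The call was lost under quantile normalization (0.97), under a common median (0.95), without pair 3 (0.92) and without pair 5 (0.94), each time because the fold change fell below 1 on the log2 scale. Ank3, ankyrin-G of nodes and initial segments, fell with a fold change of -1.23, and with Sptbn4 it made up the 2 called genes of the 13 node and initial segment genes (median -0.54).

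**Figure D2:**
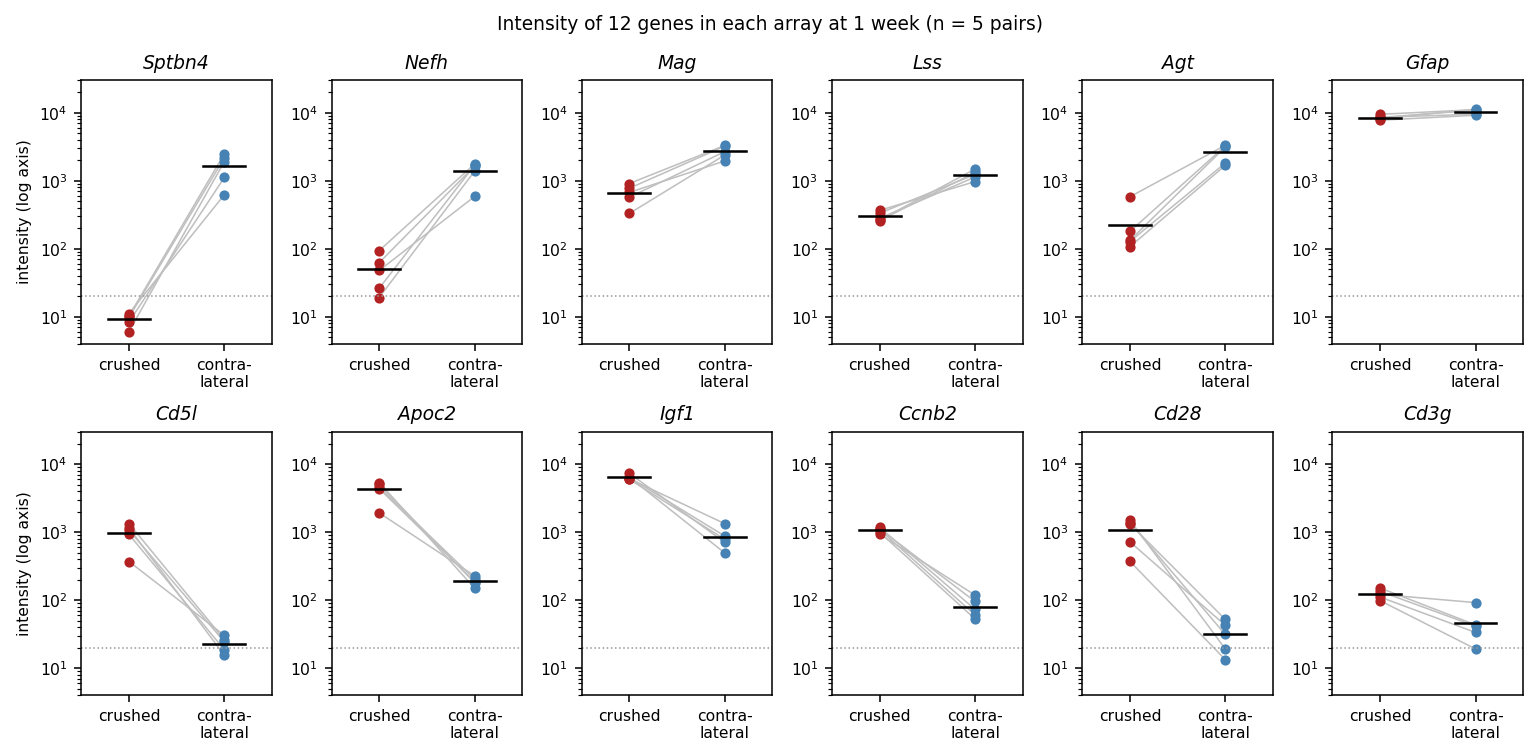
Intensity (log axis) of 12 genes in each array at 1 week, crushed left and contralateral right, with lines joining the 2 arrays of a pair, bars at the group mean and a dotted line at the floor of 20. The axon genes Sptbn4 and Nefh, Mag of myelin, Lss of cholesterol synthesis and Agt were separated downwards, Gfap lay close in both groups, and Cd5l, Apoc2, Igf1, Ccnb2, Cd28 and Cd3g were separated upwards.

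Oligodendrocyte genes were lower as a group. Of 20 markers 12 fell and none rose, the median was -1.12, and all 20 had a negative fold change. Fa2h, which hydroxylates the fatty acids of myelin galactolipids, had 627, 860.3, 928, 391 and 574 in crushed ONHs and 3603, 4390, 3369, 2949 and 1822 in contralateral ONHs (log2 fold change -2.26 ± 0.27, adjusted p = 1.48e-06). Mag, an adhesion protein of the innermost myelin layer, had 574, 912, 778, 332 and 675 in crushed ONHs against 2682, 3305, 3229, 2393 and 1959 in contralateral ONHs (log2 fold change -2.10 ± 0.30, adjusted p = 1.09e-05). Both genes were separated in all arrays. Myrf, the transcription factor that drives myelin genes, had 266, 374, 279, 194 and 249 in crushed and 1261, 1640, 1553, 1019 and 514 in contralateral ONHs (log2 fold change -2.06 ± 0.31, adjusted p = 1.97e-05). Olig2 (-1.66), Olig1 (-1.37) and Sox10 (-1.25), transcription factors of the oligodendrocyte lineage, fell too.

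Mbp, myelin basic protein, had 10409, 10861, 11252, 9520 and 10397 in crushed ONHs, against 13975, 14407, 14275, 14759 and 13367 in contralateral ONHs (log2 fold change -0.43 ± 0.08, adjusted p = 0.000107). The groups did not overlap and the gene was not called, because the difference was under 2-fold. Mbp had 8 probe sets, of which 2 fell, 1 rose and 5 were not called, with fold changes between -1.83 and 1.26. It was the only gene tested whose probe sets were called in both directions. Of 7 precursor markers 2 fell, and those were Olig1 and Olig2, which mature oligodendrocytes also express. Pdgfra, the platelet-derived growth factor receptor that marks precursors and fibroblasts, was not called (log2 fold change 0.03 ± 0.08, adjusted p = 0.777), as was Cspg4, the NG2 proteoglycan (-0.04, adjusted p = 0.865).

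Cholesterol synthesis supplies a main lipid of myelin. Of 19 genes 9 fell and none rose, the median was -0.88, and 18 of the 19 had an unadjusted p under 0.05 in the downward direction. Lss, lanosterol synthase, had 260.4, 265, 334, 280.4 and 368 in crushed ONHs and 1325, 1486, 1238, 1137 and 973 in contralateral ONHs (log2 fold change -2.03 ± 0.14, adjusted p = 2.4e-09). Fdft1, squalene synthase, had 892, 1046, 1446, 1045 and 1003 in crushed ONHs and 3622, 3616, 4138, 3341 and 2174 in contralateral ONHs (log2 fold change -1.62 ± 0.13, adjusted p = 1.54e-08). Idi1 and Fdps, which make the isoprenoid units upstream of squalene, had fold changes of -1.62 and -1.60. The intensities of these 4 enzymes did not overlap between the groups. Hmgcs1, the synthase at the entry of the pathway, had a smaller difference (log2 fold change -0.63 ± 0.05, adjusted p = 9.12e-09) and was under the 2-fold line.

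Among astrocyte genes 3 of 27 fell and none rose, with a median of -0.48 and a negative fold change in all 27. Agt, angiotensinogen, which astrocytes make in the central nervous system, had 134, 582, 180.2, 128 and 108 in crushed ONHs and 3134, 3320, 3246, 1822 and 1683 in contralateral ONHs (log2 fold change -3.81 ± 0.28, adjusted p = 3.14e-09). Ntsr2, a neurotensin receptor of astrocytes, had 183, 297, 169, 133 and 155 in crushed ONHs and 2374, 2270, 2036, 1468 and 1468 in contralateral ONHs (log2 fold change -3.38 ± 0.22, adjusted p = 1.02e-09). Acsbg1, an acyl-CoA synthetase, had 177, 263, 352, 198 and 135 in crushed and 1423, 1591, 1345, 912 and 928 in contralateral ONHs (log2 fold change -2.50 ± 0.24, adjusted p = 8e-08). None of these genes overlapped between the groups. Gfap and Aqp4 were not called. Gfap, the intermediate filament of astrocytes, had 8514, 9478, 8218, 8559 and 7774 in crushed ONHs and 10916, 11094, 11271, 9532 and 9186 in contralateral ONHs (log2 fold change -0.29 ± 0.09, adjusted p = 0.0191), and Aqp4, the water channel of their end feet, had a fold change of -0.48 (adjusted p = 0.0041). Both missed the 2-fold line.

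The genes known to rise in reactive astrocytes showed no common shift: 4 of 34 rose, 1 fell and the median was 0.10. B3gnt5, a glycosyltransferase, had 435, 309, 278, 343 and 324 in crushed ONHs and 68, 96.4, 73.5, 94 and 103 in contralateral ONHs (log2 fold change 1.96 ± 0.16, adjusted p = 1.58e-08). Timp1, an inhibitor of matrix metalloproteases, had 5831, 6180, 4831, 6253 and 5525 in crushed and 1789, 1765, 1994, 1141 and 1713 in contralateral ONHs (log2 fold change 1.79 ± 0.12, adjusted p = 9.73e-10), and Lcn2, lipocalin-2, had a fold change of 1.58 with higher values in 4 of 5 pairs. Sphk1, sphingosine kinase 1, fell by 1.26 on the log2 scale. Vim, vimentin, differed little (log2 fold change -0.06 ± 0.06, adjusted p = 0.394).

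Transport and detoxification genes of glia and barrier cells that passed the test mostly fell. Of 23 solute carriers 5 fell and none rose (median -0.45), among them the organic anion transporter Slc22a6 (-1.52), the glutamine transporter Slc38a3 (-1.43), the dicarboxylate transporter Slc13a3 (-1.26) and the GABA transporter Slc6a13 (-1.07). Slc22a6 and Slc6a13, which leptomeningeal cells express, were also the only called genes among 15 markers of meningeal fibroblasts, whose median was 0.03. Slc6a13 lost its call without pair 3 (-0.94) or pair 5 (-0.97). Of 39 genes of glutathione and drug metabolism 3 fell and 1 rose: Gstm7 (log2 fold change -2.01 ± 0.18, adjusted p = 4.01e-08), Cyp2d22 and Fmo2 fell, and Cyp1b1 rose (1.11). The call of Fmo2 (-1.01, adjusted p = 0.0415) was lost in 4 of the 5 fits that left out a pair, those without pair 1, 2, 4 or 5 (adjusted p = 0.0844 to 0.121), and with no filter or no trend. Cyp2d22 lost its call without pair 1 (-0.97). Gstm1, the abundant glutathione transferase, had a fold change of -0.89 and was not called.

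Genes of the vessel wall were almost all not called. None of 17 endothelial genes was called by limma (median 0.07), and before adjustment 2 were higher and 4 lower at p under 0.05. The endothelial adhesion molecules Pecam1 and Cdh5 had fold changes of 0.39 and 0.10 (adjusted p = 0.0904 and 0.413). Of 13 genes of pericytes and smooth muscle 1 rose, the aminopeptidase Anpep (1.51), and Pdgfrb, the pericyte receptor, had a fold change of 0.43.

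Genes of mitosis formed the group with the highest median. Of 29 members 28 rose and 1 fell, and the median log2 fold change was 2.62. Ccnb2, cyclin B2, had 995, 1175, 935, 1096 and 1120 in crushed ONHs, against 53, 73.3, 119, 60.7 and 95.8 in contralateral ONHs (log2 fold change 3.79 ± 0.22, adjusted p = 2.17e-10). Cdk1, the kinase that cyclin B activates at entry into mitosis, had 1796, 1825, 1329, 1768 and 1634 in crushed ONHs and 164, 219, 234, 194 and 358 in contralateral ONHs (log2 fold change 2.88 ± 0.24, adjusted p = 1.77e-08). The crushed arrays lay close together in both genes, and no contralateral array came near them. Bub1 of the spindle checkpoint (3.36), Cdca3 (3.33) and Aurkb, the kinase of the chromosomal passenger complex (3.19), were the next largest. Kif4, a chromokinesin of the spindle midzone, was the member that fell, with 129, 191, 116, 108 and 146 in crushed ONHs and 381, 321, 508, 228 and 173 in contralateral ONHs (log2 fold change -1.15 ± 0.26, adjusted p = 0.00114). Its groups overlapped, and it lost its call without pair 3 (-0.91).

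The promoters of the mitotic genes were searched for a short sequence. Many genes of late cell cycle are held down in resting cells through a cell cycle genes homology region (CHR), whose core is TTTGAA, and RefSeq promoters (GRCm38.p6, 250 bases before to 50 after the start) were searched for these letters on both strands. The motif was chosen after the fold changes were known. It stood in 19 of 26 promoters of the mitotic genes that rose (73.1%; 24 of the 28 genes had a promoter in the table), against 12.1% of the 11162 promoters of all genes tested and 17.9% of all 32851 promoters. The same letters stood in 19.4% of the 664 promoters of all genes that rose, in 3 of 8 of the lysosomal hydrolases that rose (37.5%) and in 3 of 16 of the microglial and macrophage genes that rose (18.8%). The promoters of Ccnb2, Cdk1 and Plk1 are shown as examples of the mitotic group, and Plk1, a mitotic kinase, was chosen after its values were seen. Capitals mark the CHR letters, and all are written 5′ to 3′ along the strand of the gene.
Ccnb2 (chr9:70421505-70421804, minus strand): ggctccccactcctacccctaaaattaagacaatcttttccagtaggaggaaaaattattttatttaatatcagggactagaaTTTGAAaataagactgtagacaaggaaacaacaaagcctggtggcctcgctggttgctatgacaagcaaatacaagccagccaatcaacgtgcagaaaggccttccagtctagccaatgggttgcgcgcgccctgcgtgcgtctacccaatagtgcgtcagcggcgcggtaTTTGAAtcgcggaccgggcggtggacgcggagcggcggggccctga
Cdk1 (chr10:69352863-69353162, minus strand): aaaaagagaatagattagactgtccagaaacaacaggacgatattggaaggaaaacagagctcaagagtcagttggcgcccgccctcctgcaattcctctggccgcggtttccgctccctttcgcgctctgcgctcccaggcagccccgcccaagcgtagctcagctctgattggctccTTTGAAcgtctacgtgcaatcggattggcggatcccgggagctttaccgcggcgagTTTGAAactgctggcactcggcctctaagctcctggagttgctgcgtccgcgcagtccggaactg
Plk1 (chr7:122159185-122159484, plus strand): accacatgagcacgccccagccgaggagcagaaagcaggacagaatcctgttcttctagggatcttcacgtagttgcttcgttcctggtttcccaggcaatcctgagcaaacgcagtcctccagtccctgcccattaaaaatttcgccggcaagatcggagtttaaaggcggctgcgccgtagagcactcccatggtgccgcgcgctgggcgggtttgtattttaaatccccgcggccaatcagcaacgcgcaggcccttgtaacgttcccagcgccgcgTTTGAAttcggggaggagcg

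A match of these letters is a description of the sequence and not evidence of a bound site. Of the E2F motif TTCCCGCC, sought on both strands, 0 of these 26 promoters held a copy, against 3.51% of the promoters of all genes tested.

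Replication genes had smaller effects than mitotic genes at 1 week. Of 33 genes 6 rose (18.2%, against 6.53% of all genes) and none fell, with a median of 0.54. At an unadjusted p under 0.05 in limma 22 of the 33 were higher and 1 lower. Tk1, thymidine kinase, had 434, 518, 454, 424 and 450.1 in crushed ONHs and 32.7, 65.2, 110.5, 53.6 and 94.9 in contralateral ONHs (log2 fold change 2.80 ± 0.32, adjusted p = 7.58e-07). Rrm2 of ribonucleotide reductase (1.98), the licensing factor Cdt1 (1.88) and the polymerase subunit Pole2 (1.63) were the next largest. Mcm2 and Mcm3 of the replicative helicase had fold changes of 0.68 and 0.46 (adjusted p = 0.00223 and 0.107) and were not called. The median effect on replication genes was 1.31 at 1 day and 1.49 at 3 days, against 0.54 at 1 week and 0.04 at 3 weeks. For mitosis it was 1.02, 4.09, 2.62 and 0.12 at the same times. The difference between times was tested gene by gene. The effect at 1 week was higher than at 1 day in 16 mitotic genes and in 0 replication genes (6.88% of all genes were higher), and it was lower than at 1 day in 1 mitotic and 15 replication genes (4.11% of all genes were lower). Against 3 days it was lower in 24 mitotic and 16 replication genes (2.28% of all genes were lower), and against 3 weeks it was higher in 27 mitotic and 6 replication genes (3.11% of all genes were higher).

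**Figure D3:**
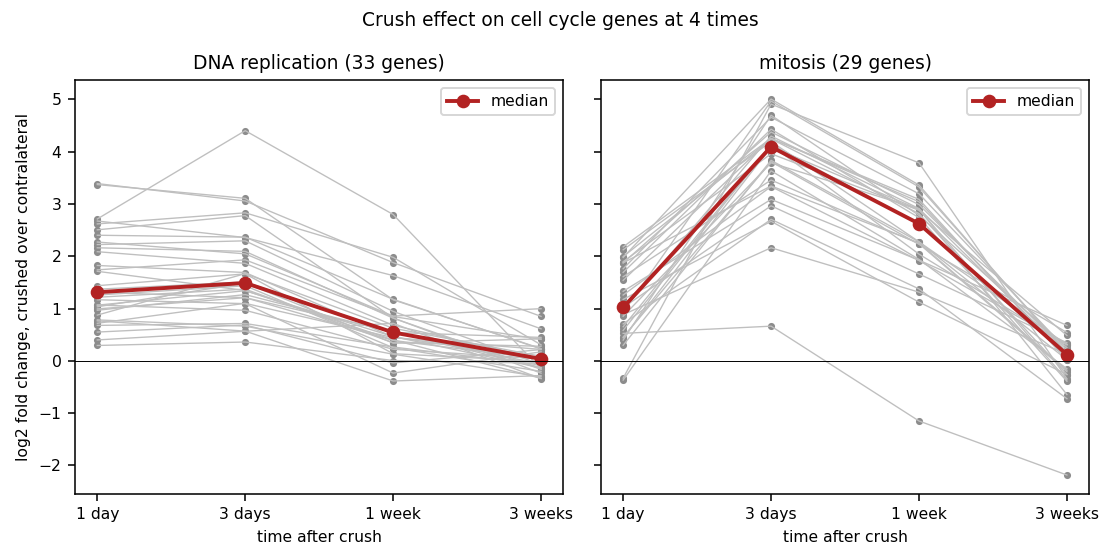
Log2 fold change of crushed over contralateral ONH at the 4 times, in days or weeks after crush, for 33 DNA replication genes (left) and 29 mitosis genes (right), 1 grey line per gene and the median in red. Replication genes were highest at 1 day and 3 days, and mitotic genes at 3 days, with a median of 2.62 still at 1 week.

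Genes of microglia and macrophages rose. Of 27 markers 16 rose and none fell, all 27 had a positive fold change, and the median was 1.26. Cd5l, a secreted protein of tissue macrophages, had the largest rise of all genes, with 1072, 1339, 371, 1153 and 928 in crushed ONHs and 24.5, 26.4, 30.4, 15.5 and 18.7 in contralateral ONHs (log2 fold change 5.22 ± 0.38, adjusted p = 3.16e-09). Its 5 crushed values lay above all contralateral values, and replicate 3 was the lowest of them. Cd68, a lysosomal glycoprotein of phagocytes, had 6350, 5886, 3515, 7410 and 6462 in crushed ONHs and 1500, 1668, 1396, 1203 and 1290 in contralateral ONHs (log2 fold change 2.04 ± 0.16, adjusted p = 1.22e-08). Cd84, an adhesion receptor of leukocytes, and Msr1, a scavenger receptor, had fold changes of 2.84 and 2.64. Aif1, which codes for Iba1, had 1.21 and Itgam, CD11b, had 1.33. Aif1 lost its call without pair 4 (0.95). Replicate 3 was the lowest crushed array in the mean level of these markers (11.51 on the log2 scale, against 12.06 to 12.36 in the other 4), and contralateral arrays lay between 10.40 and 10.70.

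Genes that mark microglia at rest moved in both directions. Of 8 such genes 1 rose and 2 fell, and the median was 0.45. At an unadjusted p under 0.05 in limma 5 were higher and 3 lower. Fcrls, an Fc receptor-like protein, rose (log2 fold change 2.52 ± 0.23, adjusted p = 5.8e-08), whereas Slc2a5, a fructose transporter of microglia, had 44, 25.4, 23.6, 33.9 and 33.8 in crushed ONHs and 212, 199, 212, 134 and 135 in contralateral ONHs (log2 fold change -2.48 ± 0.19, adjusted p = 4.57e-09) and Sall1, a transcription factor of microglial identity, had a fold change of -1.09. P2ry12, the purinergic receptor by which microglial processes sense ATP, was lower in all 5 pairs and was not called (log2 fold change -0.41 ± 0.15, adjusted p = 0.0316), and Tmem119 had a fold change of 0.51 (adjusted p = 0.0177), also not called.

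Receptors and enzymes of phagocytosis were among the groups with the highest share called: 19 of 28 rose, none fell, and the median was 1.42. Cybb, the catalytic subunit of the phagocyte NADPH oxidase, had 843, 695, 426, 1256 and 945 in crushed ONHs and 91.5, 83.4, 59.5, 89 and 194 in contralateral ONHs (log2 fold change 3.04 ± 0.23, adjusted p = 4.54e-09). The tyrosine kinase Syk (2.23) and the GTPase Rac2 (2.08), which act downstream of phagocytic receptors, rose. Among the receptors for dying cells Mertk had a fold change of 1.10, while its relative Axl was not called (log2 fold change 0.27 ± 0.08, adjusted p = 0.0144). Mertk was higher in 4 of the 5 pairs and lost its call without pair 4 (0.86).

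Lipid handling rose in part. Of 31 genes 12 rose and 1 fell, with a median of 0.44. Apoc2, the cofactor of lipoprotein lipase, had 5052, 4363, 1923, 5350 and 4580 in crushed ONHs and 181, 188, 228, 151 and 205 in contralateral ONHs (log2 fold change 4.41 ± 0.29, adjusted p = 1.05e-09). Its neighbours in the same gene cluster Apoc4 (3.58) and Apoc1 (3.15) rose as well, whereas Apoe of that cluster, the main lipid carrier of the central nervous system, had 6320, 6281, 5315, 7337 and 6237 in crushed ONHs and 8663, 9863, 8908, 7834 and 7072 in contralateral ONHs (log2 fold change -0.43 ± 0.10, adjusted p = 0.00232) and was not called. Fabp4, a fatty acid carrier of fat cells and macrophages, had a fold change of 3.68, and contralateral replicate 3 was as high as crushed arrays in it (6160 against 176, 33.6, 242 and 350 in the other contralateral arrays). Plin4, a lipid droplet coat protein of fat cells, was the member that fell (log2 fold change -2.06 ± 0.29, adjusted p = 9.44e-06).

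Lysosomal enzymes rose in part. Of 39 hydrolases 6 rose (15.4%, against 6.53% of all genes) and none fell (median 0.38), while 25 of the 39 were higher at an unadjusted p under 0.05. Acp5, the tartrate-resistant phosphatase of osteoclasts and activated macrophages, had 1980, 1477, 1098, 2927 and 2053 in crushed ONHs and 60.2, 64.4, 330.4, 55 and 89.5 in contralateral ONHs (log2 fold change 4.31 ± 0.41, adjusted p = 1.01e-07). Gla, α-galactosidase A, Lipa, the acid lipase that frees cholesterol, and Ctse, cathepsin E, had fold changes of 1.78, 1.48 and 1.40. Ctsb, cathepsin B, had a fold change of 0.30 (adjusted p = 0.000189) and was not called, because it missed the 2-fold line. Of 25 genes of the lysosomal membrane and proton pump 3 rose and none fell, namely Slc11a1, an ion transporter of macrophage phagosomes (2.21), Cd68 and Gpnmb (1.72), and Lamp1 and Lamp2 were not called (-0.06 and 0.09).

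The CLEAR element TCACGTGA, through which TFEB drives lysosomal genes, was sought in the same promoter table on both strands. Of the promoters of all genes tested 1.57% held the element, and of those of all genes that rose 0.753%. Of the 6 hydrolases that rose 5 had an entry, with 8 promoters, and 1 of these held it (12.5%), that of Gla. It is shown here with the 2 copies of the element in capitals, as the hydrolase that both rose and carried the element.
Gla (chrX:134600956-134601255, minus strand): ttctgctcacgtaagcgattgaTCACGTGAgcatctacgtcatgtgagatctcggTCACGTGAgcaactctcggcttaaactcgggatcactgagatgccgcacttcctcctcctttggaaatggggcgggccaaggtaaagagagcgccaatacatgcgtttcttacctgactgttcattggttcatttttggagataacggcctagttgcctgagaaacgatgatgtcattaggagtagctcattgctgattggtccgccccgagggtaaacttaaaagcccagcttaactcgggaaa

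The motif GAGGAAGT of PU.1, the factor of myeloid genes, stood in 2 of 19 promoters of the phagocytic genes that rose (10.5%), those of Fcgr4 and Vav1, in 0 of 16 promoters of the microglial and macrophage genes that rose, and in 2.82% of those of all genes tested. It also stood in 2 of 8 promoters of the lysosomal hydrolases that rose (25%) and in 5.12% of the promoters of all genes that rose.

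Complement genes rose in 7 of 17 cases and fell in none (median 0.94). Cfi, factor I, which cleaves C3b, had 162, 222, 73.9, 188 and 171 in crushed ONHs and 6.85, 25.6, 11.9, 28.5 and 13.9 in contralateral ONHs (log2 fold change 2.77 ± 0.28, adjusted p = 1.94e-07). Properdin, Cfp, had a fold change of 2.51, Itgax, the CD11c subunit of a complement receptor, 2.44, and C3ar1, the receptor of C3a, 2.33. C1qa and C1qb, the recognition chains made by microglia, had fold changes of 0.45 and 0.42 and stayed under the 2-fold line.

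Class II genes of antigen presentation rose, and few class I genes were called. Of 12 class II genes 6 rose and none fell (median 0.95). H2-Eb1, a β chain, had 4107, 2940, 5045, 6639 and 4839 in crushed ONHs and 1871, 1485, 1420, 1411 and 1763 in contralateral ONHs (log2 fold change 1.53 ± 0.23, adjusted p = 2.35e-05), and Ciita, the transactivator of these genes, had 129, 124, 157, 281 and 139.8 in crushed ONHs and 36.2, 37, 50.2, 49.3 and 52 in contralateral ONHs (log2 fold change 1.83 ± 0.21, adjusted p = 9.71e-07). H2-Aa and H2-Ab1 had fold changes of 1.20 and 1.20. Of 14 class I genes 1 rose, H2-M3 (1.13), and B2m, the light chain of class I, was not called, with 12932, 12545, 12671, 13881 and 12773 in crushed ONHs and 12661, 12990, 12251, 12758 and 13356 in contralateral ONHs (log2 fold change 0.02 ± 0.05, adjusted p = 0.796). None of 23 interferon-stimulated genes was called by limma (median -0.05), and before adjustment 2 were higher and 1 was lower at p under 0.05. Ifit1, an RNA-binding antiviral protein, spanned 1362 to 8210 in crushed ONHs and 2812 to 6564 in contralateral ONHs, and the contralateral range lay inside the crushed one.

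Part of the lymphocyte genes and most of the neutrophil genes rose. Of 17 genes of T and NK cells 8 rose and none fell (median 0.95). Il7r, the interleukin 7 receptor, had 2669, 1597, 763, 4894 and 3568 in crushed ONHs and 117, 101, 73.2, 79.3 and 93 in contralateral ONHs (log2 fold change 4.62 ± 0.32, adjusted p = 1.53e-09). Cd3g and Cd3d, chains of the T cell receptor complex, rose too. Cd3g had 111, 135, 98.5, 151 and 122 in crushed ONHs and 33.6, 41.5, 19.2, 43.5 and 92.3 in contralateral ONHs (log2 fold change 1.59 ± 0.32, adjusted p = 0.000409), and Cd3d had a fold change of 1.79. Klrd1, CD94 of NK cells, had 2.44. Cd3e, another CD3 chain, rose (1.13) and lost its call in 2 of the fits that left out a pair. The 9 uncalled members had fold changes from -0.16 to 0.95. Cd4 (0.66) and Cd8a (0.36), chosen after their values were seen, were among them. Cd28, the T cell co-stimulator, had 1506, 722, 373, 1387 and 1327 in crushed ONHs and 19.2, 42.8, 13.4, 31.4 and 52.2 in contralateral ONHs (log2 fold change 4.93 ± 0.37, adjusted p = 4.42e-09). Of 6 B cell genes Cd22 (2.24) and Cd79b (1.97) rose, and Ms4a1, CD20, was not called (log2 fold change 0.02 ± 0.31, adjusted p = 0.967).

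Of 9 neutrophil genes 6 rose and none fell (median 1.58). S100a8 and S100a9 code for the subunits of calprotectin. S100a8 had 2770, 772, 725, 5244 and 3131 in crushed ONHs and 144, 70.6, 115, 117 and 80.4 in contralateral ONHs (log2 fold change 4.23 ± 0.35, adjusted p = 1.32e-08). S100a9 had 2038, 86.9, 403, 4685 and 2046 in crushed ONHs and 103, 13.6, 73.4, 19.7 and 83 in contralateral ONHs (log2 fold change 4.28 ± 0.55, adjusted p = 3.59e-06). Crushed replicate 2 was low in S100a9, so that the groups overlapped, and crushed replicate 4 was the highest in both genes. Mmp8, the collagenase of neutrophils, had 426, 305, 91.6, 339 and 455 in crushed ONHs and 1.12, 6.54, 6.8, 4.6 and 3.96 in contralateral ONHs (log2 fold change 3.83 ± 0.50, adjusted p = 4.14e-06), and all 5 contralateral arrays were below the floor.

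Chemokines and acute cytokines rose in 16 of 31 genes and fell in none (median 1.10). Il1rn, the antagonist of the interleukin 1 receptor, had 1113, 503, 457, 2132 and 1554 in crushed ONHs and 95.1, 108, 65.4, 78.4 and 102 in contralateral ONHs (log2 fold change 3.45 ± 0.28, adjusted p = 1.28e-08), and Il1b had 154, 72.1, 107, 655 and 395 in crushed ONHs and 36.5, 34.5, 45.6, 36.6 and 71.2 in contralateral ONHs (log2 fold change 2.20 ± 0.37, adjusted p = 6.74e-05). Ccl8 (2.71) and Cxcl1 (2.43), attractants of monocytes and neutrophils, were the other large rises. Ccl2, the monocyte attractant, varied between pairs: it was higher in 3 of the 5 pairs (log2 fold change 1.49 ± 0.54, adjusted p = 0.0309), contralateral replicates 1 and 5 reached 756 and 1965, and its call was lost without pair 2, 3 or 4 (adjusted p = 0.075, 0.0611 and 0.254). Against 1 day the effect at 1 week was lower in 17 of the 31 genes and higher in 1 (4.11% and 6.88% of all genes).

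Genes of the extracellular matrix changed in both directions. Of 24 collagens 9 rose and 1 fell (median 0.58). Col5a2, of the collagen that nucleates fibrils, had 5044, 5304, 6044, 7045 and 5148 in crushed ONHs and 1853, 1513, 2357, 1495 and 1087 in contralateral ONHs (log2 fold change 1.82 ± 0.15, adjusted p = 1.62e-08). Col8a1 (1.69), Col14a1 (1.68) and Col5a3 (1.66) followed. Col1a1 and Col1a2, the chains of type I collagen, had fold changes of 0.59 and 0.34, both above 0 in all 5 pairs and under the 2-fold line. Col4a3, a basement membrane chain, was the member that fell (log2 fold change -1.10 ± 0.43, adjusted p = 0.0457), and it lost the call without pair 1, 2, 4 or 5 (adjusted p = 0.0502 to 0.235). Col4a1, another basement membrane chain, rose (1.21, chosen after its value was seen).

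Lox, the oxidase that cross-links collagen and elastin, had 6489, 6021, 7303, 6932 and 6130 in crushed ONHs and 1264, 1067, 1393, 1682 and 1818 in contralateral ONHs (log2 fold change 2.21 ± 0.19, adjusted p = 2.05e-08). It was 1 of 3 genes to rise among 15 of collagen processing, with Loxl1 (1.23) and Crtap (1.05), and Pcolce2, an enhancer of procollagen cleavage, fell (-1.17). Without pair 4 the calls of Crtap (0.86) and Pcolce2 (-0.86) were lost. Eln, elastin, had 6580, 6308, 7414, 8080 and 6855 in crushed ONHs and 2224, 1949, 1655, 1694 and 1435 in contralateral ONHs (log2 fold change 1.99 ± 0.19, adjusted p = 7.72e-08). Among 30 matrix glycoproteins 11 rose and 2 fell (median 0.46), Thbs1 (2.11), Fbln2 (2.05) and Thbs4 (1.65) among the rises. Tnc, tenascin-C, had 3814, 5990, 4246, 6434 and 3952 in crushed ONHs and 1593, 1924, 2103, 1574 and 1527 in contralateral ONHs (log2 fold change 1.46 ± 0.13, adjusted p = 4.21e-08), and Fn1, fibronectin, was not called (0.22). Laminin chains Lama5 (-1.58) and Lama1 (-1.23) were the 2 that fell, whereas the laminin chain Lamb1 rose (1.25, chosen after its value was seen). Lama1 lost its call without pair 1 or pair 3 (adjusted p = 0.0546 and 0.0638). Thbs4 was lower in the crushed array of pair 1 and lost its call without pair 3, 4 or 5 (adjusted p = 0.119, 0.0753 and 0.0687).

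Proteoglycans split: of 25 genes 2 rose and 3 fell (median -0.04). Acan, aggrecan (2.20), and Vcan, versican (log2 fold change 1.13 ± 0.10, adjusted p = 2.29e-08), rose, and the neural proteoglycans Cspg5 (-1.40) and Bcan, brevican (-1.39), fell with Omd (-1.15). Matrix proteases and their inhibitors rose in 13 of 27 genes and fell in none (median 0.99). Adam8, a protease of leukocytes, had 715, 433, 286, 1195 and 1001 in crushed ONHs and 12.3, 24.2, 45.2, 32 and 27.2 in contralateral ONHs (log2 fold change 4.48 ± 0.29, adjusted p = 9.73e-10). Mmp12, the elastase of macrophages, had 1444, 409, 629, 2732 and 2950 in crushed ONHs and 69.7, 78.5, 82.2, 55.9 and 181 in contralateral ONHs (log2 fold change 3.87 ± 0.39, adjusted p = 1.81e-07). Mmp13, an interstitial collagenase, had a fold change of 3.52, and its crushed replicate 2, at 22.7, was near the floor. Mmp2 and Mmp3 were not called (0.98 and 0.82).

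**Figure D4:**
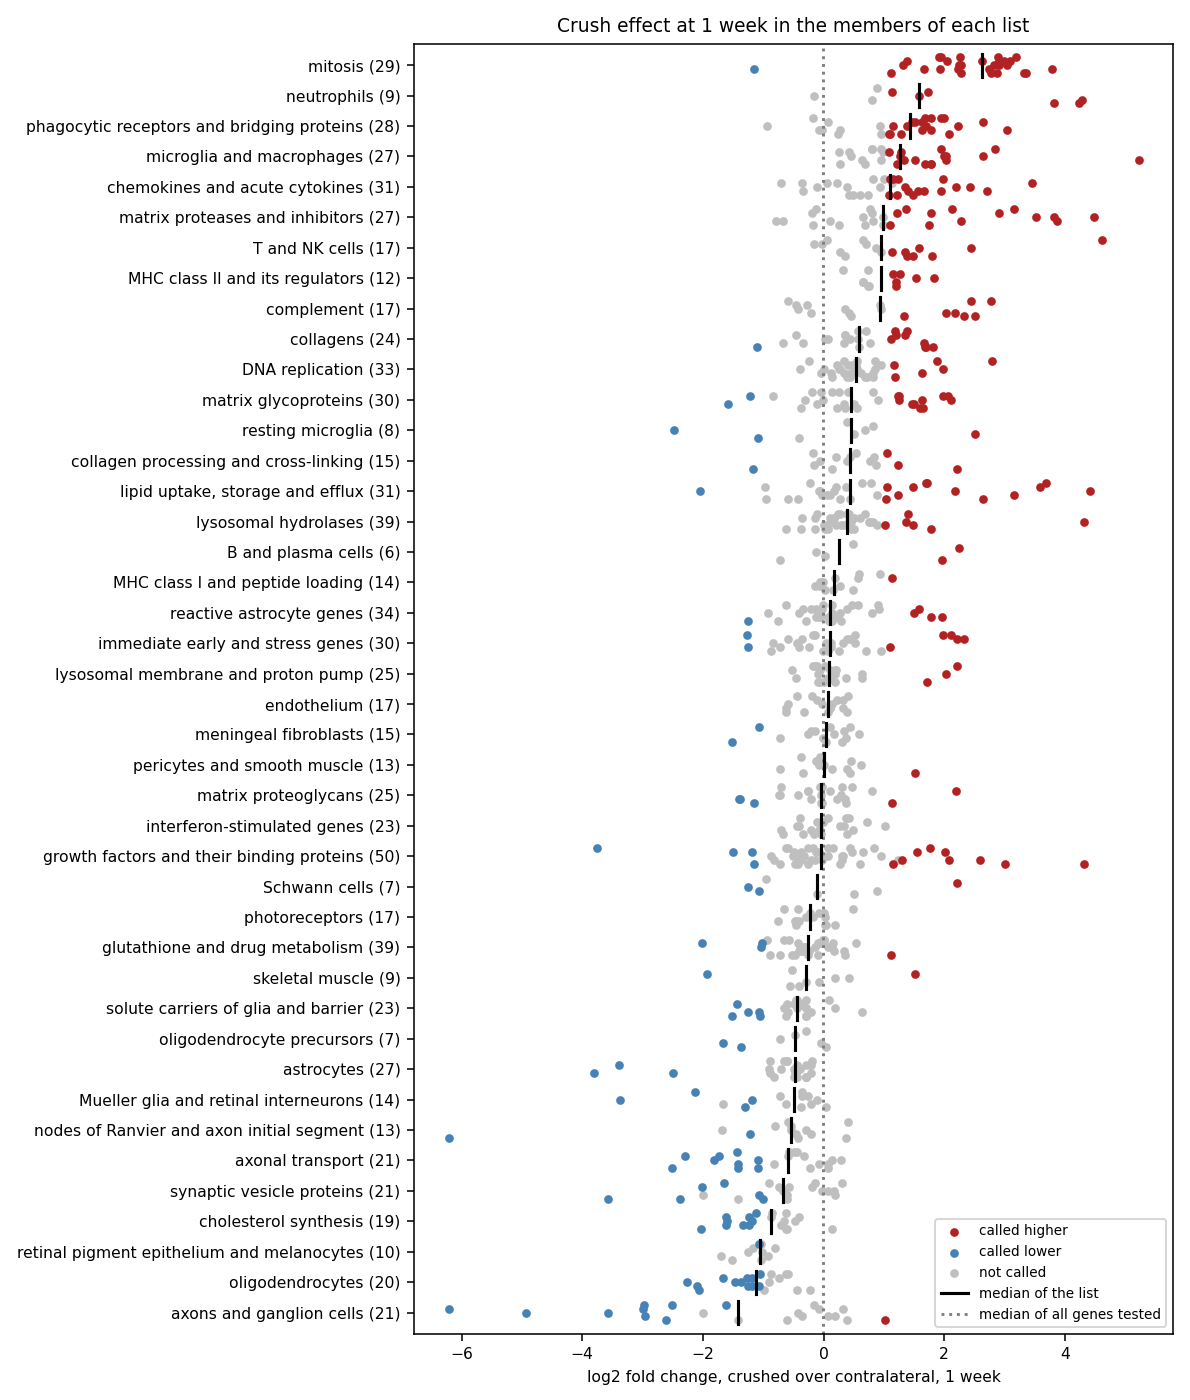
Log2 fold change of crushed over contralateral ONH at 1 week for the members of 42 gene lists, with the number of members tested in brackets. Each point is a gene, in red where it rose, in blue where it fell and in grey where it was not called. The bar is the median of the list and the dotted line that of all genes tested (-0.01). Mitosis has the highest median (2.62) and axons and ganglion cells the lowest (-1.42).

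Growth factors showed single large changes and no common shift (9 of 50 rose, 4 fell, median -0.05). Igf1, insulin-like growth factor 1, had 5973, 6415, 6072, 7303 and 6348 in crushed ONHs and 784, 495, 1334, 709 and 876 in contralateral ONHs (log2 fold change 3.01 ± 0.22, adjusted p = 2.7e-09). Wnt2, a ligand of frizzled receptors, had 491, 565, 302, 825 and 461 in crushed ONHs and 17.9, 16.8, 43, 17.7 and 29.3 in contralateral ONHs (log2 fold change 4.32 ± 0.34, adjusted p = 8.19e-09). Hgf, the ligand of the MET receptor, had a fold change of 2.59. Gdf3, a ligand of the TGF-β family outside that list, had 575, 308, 108, 604 and 524 in crushed ONHs and 10.3, 24.9, 33.9, 27.4 and 17.7 in contralateral ONHs (log2 fold change 3.86 ± 0.39, adjusted p = 1.94e-07). Igfbpl1, a relative of the insulin-like growth factor binding proteins, had 165, 336, 142, 92.3 and 189 in crushed ONHs and 2450, 2572, 2319, 2047 and 2083 in contralateral ONHs (log2 fold change -3.76 ± 0.35, adjusted p = 6.01e-08). Bmp7 (-1.50), Wnt6 (-1.19) and Fgf1 (-1.16) fell too. Wnk2, a kinase that regulates ion cotransport, was among the largest falls outside the lists, with 62, 124, 116, 72.7 and 130.5 in crushed ONHs and 951, 971, 1129, 718 and 330.1 in contralateral ONHs (log2 fold change -2.97 ± 0.32, adjusted p = 3.59e-07).

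Stress genes were mostly not called: 5 of 30 rose and 2 fell (median 0.10). Hmox1, heme oxygenase 1, had 1805, 1237, 1123, 2075 and 2243 in crushed ONHs and 342, 504, 115, 399 and 475 in contralateral ONHs (log2 fold change 2.32 ± 0.20, adjusted p = 1.96e-08). Egr2 (2.21), Sprr1a (2.12) and Myc (1.99) rose, and Hspa1a, an inducible heat shock protein, fell with Sphk1 (-1.27 and -1.26). Fos was not called (log2 fold change 0.26 ± 0.14, adjusted p = 0.145). Egr2 was also the 1 gene to rise of 7 markers of Schwann cells, of which Ngfr (-1.07) and Sox10 fell, and Pmp22 was not called (-0.11). Ngfr lost its call without pair 1 (-0.92) or pair 2 (-0.84).

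Cells that a dissection of the ONH can carry along were checked by their markers. Sag of photoreceptors ranged from 146 to 10588 in crushed ONHs and from 94 to 12365 in contralateral ONHs, and was not called (log2 fold change 0.04 ± 1.51, adjusted p = 0.985). Of 14 genes of Müller glia and retinal interneurons 4 fell (median -0.50): Calb2, Trpm1 (-2.13), Rlbp1 (-1.30) and Prox1 (-1.19). Of 10 genes of pigment epithelium and melanocytes Rdh5 fell (-1.07), all 10 had negative fold changes and the median was -1.05. Without pair 4 the calls of Rlbp1 (-0.999) and Prox1 (-0.87) were lost, and without pair 3 that of Rdh5 (-0.93). Rpe65 and Rgr were lower in the crushed array of 4 of 5 pairs and were not called (-1.52 and -1.71, adjusted p = 0.0833 and 0.0626). The mean log2 level of the pigment epithelium markers was 7.86 to 9.51 in crushed ONHs and 9.58 to 10.84 in contralateral ONHs, and its part in the other results was not tested. Muscle genes gave 1 rise and 1 fall of 9, Tnni2 (1.52) and Pvalb (-1.94), and Myh4 lay near the floor with up to 28.1 in crushed ONHs and up to 95.2 in contralateral ONHs.

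The crush effect at 1 week was set against those at 1 day, 3 days and 3 weeks, each with its own contralateral arrays in the same model. It was higher than at 1 day in 1288 probe sets (6.67%) and lower in 742 (3.84%). Against 3 days it was higher in 208 probe sets (1.08%) and lower in 394 (2.04%), and against 3 weeks it was higher in 598 (3.1%) and lower in 271 (1.4%). In 30 probe sets (0.155%) the rise at 1 week exceeded the effect at each of the 3 other times, and in 12 (0.0621%) the fall did. These small counts depend on single pairs: without pair 5 they were 48 and 48, and without pair 1 they were 26 and 7.

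Counted as genes, 16 rose and 8 fell beyond the other times (0.149% and 0.0743% of all genes). Scgb1a1, a secretoglobin best known from airway epithelium, had 496, 111, 107, 768 and 832 in crushed ONHs and 17.4, 16.3, 49.9, 30.5 and 32.8 in contralateral ONHs at 1 week (log2 fold change 3.50 ± 0.39, adjusted p = 5.8e-07), and its effects were 0.21 at 1 day, 0.15 at 3 days and 0.68 at 3 weeks. Cd28 had effects of -0.10 (1 day), 2.64 (3 days), 4.93 (1 week) and 0.90 (3 weeks). Csn1s2a, a casein gene, had 334, 285, 317, 451 and 322 in crushed ONHs and 7.31, 12.3, 9.34, 12.3 and 3.86 in contralateral ONHs at 1 week (log2 fold change 4.08 ± 0.24, adjusted p = 4.95e-10). Every contralateral array was below the floor in Csn1s2a, so this fold change is understated.

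C1qtnf6 and C1qtnf3, secreted relatives of C1q and tumour necrosis factor, were 2 more. C1qtnf6 had 1170, 1402, 1603, 2198 and 1139 in crushed ONHs and 186, 181, 293, 154 and 178 in contralateral ONHs (log2 fold change 2.92 ± 0.20, adjusted p = 1.16e-09), and C1qtnf3 had 62.9, 492, 420.3, 295 and 167 in crushed ONHs and 32.6, 56.2, 30.0, 29.2 and 61.2 in contralateral ONHs (log2 fold change 2.53 ± 0.32, adjusted p = 2.43e-06). Crushed replicate 1 was low in C1qtnf3 and still above the contralateral arrays. Lgr5, a receptor of R-spondins, had 114, 251, 177, 271 and 153 in crushed ONHs and 11, 13.2, 39, 127 and 15.1 in contralateral ONHs (log2 fold change 2.48 ± 0.33, adjusted p = 6.52e-06), with an overlap through contralateral replicate 4. Itga4, the α4 integrin of leukocytes, had 599, 326, 288, 557 and 481 in crushed ONHs and 142, 115, 96.9, 123 and 163 in contralateral ONHs (log2 fold change 1.78 ± 0.17, adjusted p = 8.54e-08), with effects of 0.28 at 1 day, 0.40 at 3 days and -0.0015 at 3 weeks. Cybb, Pi15 and Prss35 belong to the same group. Prss35, a serine protease relative, had effects of -1.73 (1 day), -0.24 (3 days), 1.55 (1 week) and -0.63 (3 weeks), which lay on both sides of 0. Those of Eln did as well: its effects were -1.18 (1 day), 0.71 (3 days), 1.99 (1 week) and 0.81 (3 weeks).

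Among the 8 falls beyond the other times Sptbn4 had effects of -0.22 (1 day), -2.59 (3 days), -6.22 (1 week) and -4.79 (3 weeks). Nefh, for comparison, had 0.14, -1.78, -4.94 and -4.78 at those times and was not beyond its effect at 3 weeks. Rph3a had -0.59 (1 day), -2.48 (3 days), -3.58 (1 week) and -1.95 (3 weeks). The other 6 genes stood in none of the axon lists. Wwc1, the scaffold protein KIBRA, had 989.8, 1631, 1241, 1129 and 902 in crushed ONHs and 5246, 5595, 6497, 4368 and 3595 in contralateral ONHs (log2 fold change -2.10 ± 0.16, adjusted p = 5.18e-09). Myo18a, an unconventional myosin, had 441, 478, 500.0, 622 and 391 in crushed ONHs and 1604, 1686, 2049, 1312 and 582 in contralateral ONHs (log2 fold change -1.47 ± 0.21, adjusted p = 9.35e-06). Tshz2 (-1.63), Shroom3, a regulator of cell shape (-1.41), Ppl, periplakin (-1.42), and Tcof1, treacle of the nucleolus (-1.20), completed the 8. In all 8 of these genes, and in Nefh, the lowest contralateral array was replicate 5, the array without whose pair the count of such probe sets was 48.

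**Figure D5:**
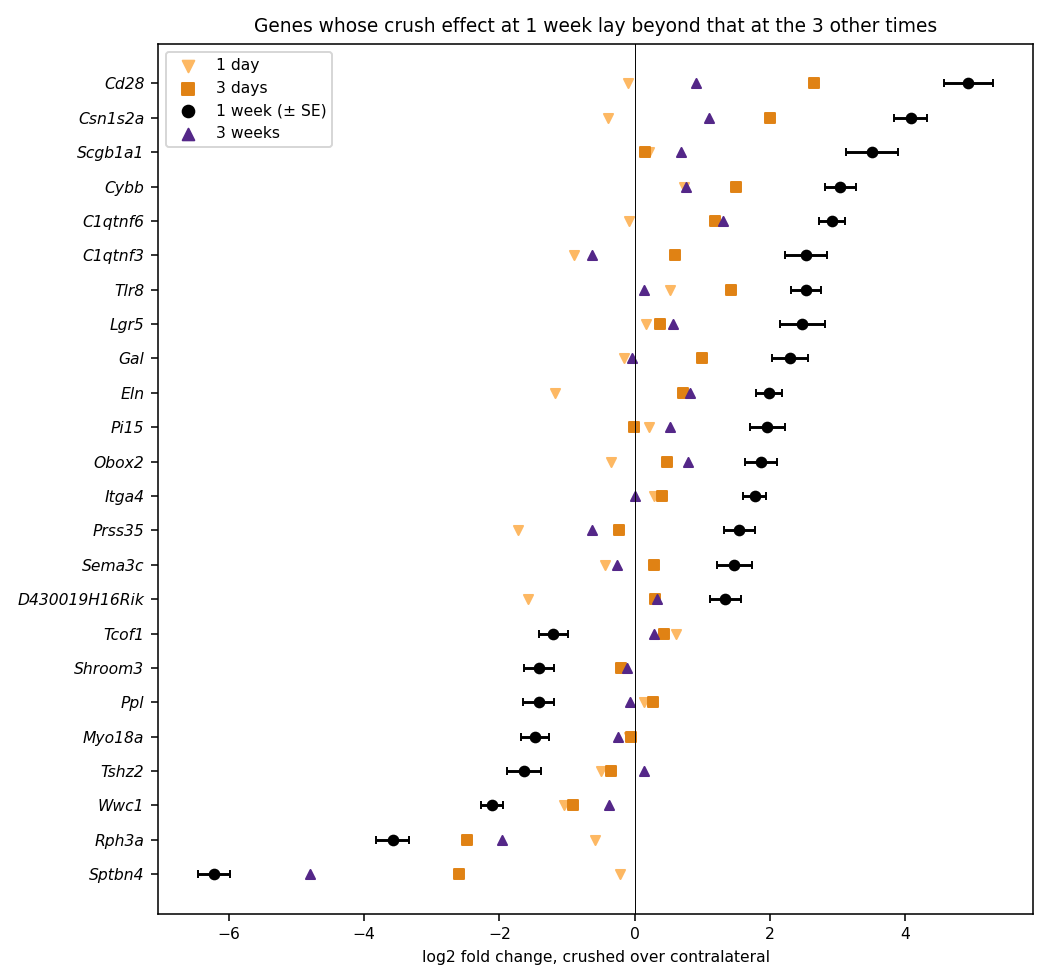
Log2 fold change of crushed over contralateral ONH at 1 week (black circles, bars are SE, n = 5 pairs) for the 16 genes that rose and the 8 that fell beyond the 3 other times, with their effects at 1 day, 3 days and 3 weeks. Sptbn4 lay furthest left at -6.22 and Cd28 furthest right at 4.93.

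Of 21 markers of axons and ganglion cells the effect at 1 week was lower than at 1 day in 7 and lower than at 3 days in 4 (4.11% and 2.28% of all genes), and lower than at 3 weeks in 2 (1.7% of all genes). Of 27 microglial and macrophage markers it was higher than at 1 day in 9, than at 3 days in 0 and than at 3 weeks in 4 (6.88%, 0.938% and 3.11% of all genes). Of 19 cholesterol synthesis genes it was lower than at 1 day in 7 and differed from 3 days and 3 weeks in none. Of 20 oligodendrocyte markers it was higher than at 1 day in 2 and differed from 3 days and 3 weeks in none.

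Naïve ONHs, from mice without surgery (5 arrays), gave a second reference. Against them 1341 probe sets rose and 654 fell in crushed ONHs at 1 week, and Sptbn4 had a fold change of -6.46, Nefh -5.50 and Thy1 1.38. Of 219 named genes 8 lost their call with the naïve reference, among them Plin4 (-0.50, adjusted p = 0.363), Lama1 (-0.60, adjusted p = 0.178) and Fmo2 (-0.18, adjusted p = 0.753), whose contralateral mean at 1 week was above the naïve median in each case.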

How the data were processed

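RNA of pooled optic nerve heads was hybridised to 1-colour Affymetrix mouse arrays. The authors normalized the scans in DChip to an invariant set of probes and summarised each probe set by the difference of its perfect match and mismatch probes, and the deposited values are linear intensities. They can fall near 0, so they were floored at 20, which touched 10.2% of the values at 1 week, and put on a log2 scale. A total of 64 control probe sets was left out, and 19313 of the other 22626 reached an intensity of 50 on at least 5 arrays. Of the 22626, 20380 carried 1 gene symbol in the platform annotation, 691 several and 1555 none, and a gene was represented by its brightest probe set with that symbol alone. Limma 3.58.1 (R 4.3.3, data.table, version 1.17.8) was fitted to 40 arrays of batch 1, crushed and contralateral at 4 times, with a term for each pair of arrays and an effect of crush for each time. eBayes was run with an intensity trend, and p-values were adjusted by Benjamini-Hochberg over all probe sets tested. Arrays at 3 months belong to another batch and were not compared.

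The pairing comes from the design, in which the left and right eyes of the same 2 mice made a pair. The sample titles give only replicate numbers, and equal numbers were taken to mark the same mice. The deviations of paired arrays from their group means correlated at -0.30, 0.38, 0.15, -0.32 and -0.12 for pairs 1 to 5. The highest correlation with an array of another pair was 0.23, 0.45, 0.24, 0.32 and 0.77, each time above that of the pair itself. No arrays held identical values. The p-values measure the spread between pools, and 5 pairs limit the precision.

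Named are the 12 genes with the largest change in each direction that moved the same way in all 5 pairs, the 4 largest called members and the first 2 measured members of each list, and the 10 genes in each direction furthest beyond the other times. The comparison, the members and the lists were chosen with earlier results of these data known. The fit was tested on simulated data. Alternatives were the model without the block, the 10 arrays alone, other floors, filters and scalings, no trend, a photoreceptor covariate, leaving out each pair, naïve arrays as reference, other fold thresholds, the mean of all probe sets of a gene, and the methods' paired test on linear intensities.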

Additional observations from a re-analysis of the deposited data

Results flagged for a closer look

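In 39 of 438 groups of 5 arrays 1 array stood apart from the other 4, by a gap to its nearest neighbour above 0.71 of the range of the group (Dixon). Independent and normally distributed values would give about 1 in 20 such groups. The genes here share the same arrays and some values were set to the floor, so that rate does not strictly apply. The values below are that share of the range, taken on log2 intensities floored at 20.

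Crushed replicate 2 was low in Rgr (0.803). Crushed replicate 2 was high in Myh4 (0.978). Crushed replicate 3 was low in Apoc2 (0.801), Cd5l (0.715), Cd84 (0.761), Cfi (0.715), Mmp8 (0.75) and Tnni2 (0.783). Crushed replicate 3 was high in Plin4 (0.738). Crushed replicate 4 was high in Anpep (0.722) and Ciita (0.715). Crushed replicate 5 was high in Cacng3 (1), Rph3a (1) and Sprr1a (0.911). In Cacng3 and Rph3a all other crushed arrays were below the floor, so a value of 1 shows only that replicate 5 was above it.

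Contralateral replicate 1 was low in Cdca3 (0.798), Rgr (0.745) and Rpe65 (0.729). Contralateral replicate 1 was high in Gpnmb (0.818). Contralateral replicate 2 was low in Lum (0.77). Contralateral replicate 3 was low in Hmox1 (0.738) and Ms4a1 (0.745). Contralateral replicate 3 was high in Acp5 (0.728), Lcn2 (0.768) and Myh4 (0.892). Contralateral replicate 4 was low in Timp1 (0.728). Contralateral replicate 4 was high in Calb2 (0.919), Cplx1 (0.732), Nefl (0.729), Pi15 (0.882), Rlbp1 (0.81), Slc1a2 (0.817), Snap25 (0.805) and Syt1 (0.746). Contralateral replicate 5 was low in Klc1 (0.915), Mcm2 (0.761), Nefh (0.779), Rph3a (0.853) and Tcof1 (0.787). Contralateral replicate 5 was high in C3ar1 (0.783).

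The crush effect at 1 week differed from the effects at other times by limma contrasts: it was higher than at 1 day in 1288 probe sets and lower in 742, higher than at 3 days in 208 and lower in 394, and higher than at 3 weeks in 598 and lower in 271. Among the named genes 4 rose at 1 week and fell at 1 day, and the difference of the effects on the log2 scale was 4.05 for Fcrls, 3.28 for Prss35, 3.17 for Eln and 2.91 for Col14a1.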

How the results depend on the processing

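At 1 week 1199 probe sets rose and 681 fell. Without the replicate block the counts were 1195 and 680, and the call of none of the 219 named genes changed. Leaving out each pair gave 1136 to 1260 that rose and 645 to 828 that fell. The counts moved with the threshold: 4447 and 3714 with no fold threshold, and 331 and 88 at 4-fold or more. The methods' paired test on linear intensities, with no fold threshold, gave 3654 and 3159 at an unadjusted p under 0.05. After Benjamini-Hochberg adjustment it gave 1400 and 1204, again with no fold threshold. With the 3 criteria of the study, which include a fold bound, it gave 577 and 241. Quantile normalization gave 1059 and 835.

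With a filter of 20 arrays at 100, which tests fewer probe sets, 250 were lower than at 3 days (394 otherwise), 360 were higher than at 3 weeks (598 otherwise) and 15 rose beyond each other time (30 otherwise). Leaving out each pair gave 1240 to 1392 higher and 687 to 856 lower than at 1 day, 151 to 278 higher and 297 to 489 lower than at 3 days, and 488 to 665 higher and 206 to 405 lower than at 3 weeks. Beyond each other time 26 to 48 rose and 7 to 48 fell, with both highest counts without pair 5; the cause was not tested. Of 219 named genes 20 lost their call in at least 1 fit without a pair, and no called gene changed sign under the alternatives run. With the mean of all probe sets of a gene in place of the brightest, 22 of 83 named genes moved by more than the spread between replicates. Among these, of the called genes, Col5a3 (0.93) and Sphk1 (-0.76) came under the 2-fold line, Gla (1.01), Klc1 (-1.03), Fdft1 (-1.04), Lss (-1.44), Trpm1 (-1.30), Bmp7 (-1.19) and Hgf (2.31) were smaller, and Eln (3.15), Lox (2.62), Ctse (1.90), Vcan (1.52) and Cyp1b1 (1.46) were larger. Shroom3 (-0.89), Tcof1 (-0.80), Fmo2 (-0.60) and Cyp2d22 (-0.98) moved by less than that spread and also came under the line. Genes near the floor of 20 have understated fold changes.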
